A study of Mus musculus with 12 samples.

Results

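The genes described here are 37 mouse genes that carry a cell through mitosis, taken from the gene count table by symbol. They are 37 of 56941 genes in the table, each matched 1 row, and all 37 passed the expression filter that left 18657 genes for testing. The libraries are bulk RNA-seq of live (DAPI-) CD45.2+ CD8+ cells sorted from Panc02 tumours, a mouse pancreatic cancer line, grown in wild type C57BL/6J mice. The sort split the cells by surface asGM1 (asialo-GM1, a glycolipid found on NK cells and some activated T cells), and the tumours had been treated with an isotype control antibody or with anti-PD-1, which blocks the inhibitory receptor PD-1 on T cells. This gives 4 groups of 3 libraries each: isotype asGM1-negative, isotype asGM1-positive, anti-PD-1 asGM1-negative and anti-PD-1 asGM1-positive. All groups share the strain, the genotype, the tumour line and the CD8 gate, and the labels name no CD3 gate. Age, sex, antibody dose and sampling day are not given in the sources used here. Nor do those sources say whether equal numbers are 1 mouse or a pool, and p-values therefore cover only how these 12 libraries vary, technical variation included.

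As background, entry into mitosis is driven by the kinase CDK1 bound to cyclins A and B, helped by the kinases PLK1 and Aurora A. Kinetochores built on the centromere then attach chromosomes to the spindle, and the spindle assembly checkpoint holds the anaphase-promoting complex, a ubiquitin ligase, until all are attached. The complex then has cyclin B destroyed, sister chromatids part, and the spindle midzone directs cytokinesis. Most of these genes are transcribed in G2 and M phase through the MuvB complex with B-MYB and FOXM1. These act at promoters holding a CHR element (core TTTGAA) and CCAAT boxes bound by NF-Y. Their RNA marks cycling cells, and in tumours CD8+ T cells that respond to antigen divide. In bulk RNA, fewer dividing cells and less RNA per dividing cell cannot be told apart.

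The promoters of 5 members are shown, chosen by hand from the 19 members found to hold both elements. Cdk1, Ccnb2, Top2a and Ube2c had their lowest mean level in anti-PD-1 asGM1-negative cells, and Cenpa did not. The sequences are RefSeq's, build GRCm38.p6, which is older than the mm39 build named for the counts, and run 5′ to 3′ on the gene's strand from 170 bases before the start site to 30 after it. Capitals mark TTTGAA or its reverse complement TTCAAA, and CCAAT or its reverse complement ATTGG.
Cdk1 (chr10:69352883-69353082, - strand): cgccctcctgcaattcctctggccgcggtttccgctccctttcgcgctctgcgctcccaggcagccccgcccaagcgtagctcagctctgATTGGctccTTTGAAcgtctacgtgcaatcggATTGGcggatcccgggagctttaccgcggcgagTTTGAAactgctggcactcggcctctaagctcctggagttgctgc
Ccnb2 (chr9:70421525-70421724, - strand): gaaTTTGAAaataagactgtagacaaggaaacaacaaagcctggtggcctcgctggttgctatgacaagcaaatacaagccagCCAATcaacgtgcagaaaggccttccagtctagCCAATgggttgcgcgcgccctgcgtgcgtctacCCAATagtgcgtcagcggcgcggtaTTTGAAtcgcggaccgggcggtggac
Top2a (chr11:99024160-99024359, - strand): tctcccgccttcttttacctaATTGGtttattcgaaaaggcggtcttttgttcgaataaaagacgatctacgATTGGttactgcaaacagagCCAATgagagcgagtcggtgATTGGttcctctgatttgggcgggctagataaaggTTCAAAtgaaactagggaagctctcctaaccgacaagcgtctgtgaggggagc
Ube2c (chr2:164769759-164769958, + strand): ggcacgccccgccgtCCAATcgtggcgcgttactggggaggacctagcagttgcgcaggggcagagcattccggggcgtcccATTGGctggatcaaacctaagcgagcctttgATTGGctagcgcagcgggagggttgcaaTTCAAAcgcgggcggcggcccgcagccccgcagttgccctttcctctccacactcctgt
Cenpa (chr5:30666716-30666915, + strand): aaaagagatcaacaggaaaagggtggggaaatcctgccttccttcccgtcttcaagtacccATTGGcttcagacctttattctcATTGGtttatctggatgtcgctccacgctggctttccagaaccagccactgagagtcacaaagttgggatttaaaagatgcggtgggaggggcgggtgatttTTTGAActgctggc

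The RefSeq promoter table, with windows from 250 bases before the start to 50 after, held 31 of the 37 members; Spc24, Aurkb, Ccna2, Pbk, Kif20a and Tpx2 were not matched. Searched on both strands, TTTGAA stood in 22 of 31 members (71%), against 20.2% of all 27025 genes in the table, 46.5% of 101 other mitosis genes and 13.3% of 30 DNA replication genes. CCAAT stood in 22 of 31 (71%), against 41.1% of all genes, 64.4% of the other mitosis genes and 53.3% of the replication genes. Both were present in 19 of 31 members (61.3%), against 7.97% of all genes. The Cenpa promoter holds both, as those of Cdk1, Ccnb2, Top2a and Ube2c do. Birc5, Mad2l1, Ncaph, Nuf2, Nusap1 and Trip13 had neither in this window. A match is a run of letters in a window and not a measured binding site.

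Levels are in CPM, the read count of a gene scaled to library size, here with TMM factors of 0.970 to 1.04. Library totals ran from 58148469 to 73206178 counts. At these totals 3 counts, the limit a count of 0 allows, correspond to 0.041 to 0.0516 CPM before the TMM factors. The lowest member level in any library was far above that, at 11.3 CPM for Ttk in anti-PD-1 asGM1-negative replicate 2, so every member was counted well above the limit of detection. The members together took 0.354 to 0.451% of counts in isotype asGM1-negative libraries, 0.402 to 0.517% in isotype asGM1-positive, 0.228 to 0.263% in anti-PD-1 asGM1-negative and 0.389 to 0.429% in anti-PD-1 asGM1-positive ones. The anti-PD-1 asGM1-negative range did not overlap any other group's. Within isotype, replicate 3 stood above the others: it was the highest of its group for 33 of 37 members in asGM1-negative and for 35 in asGM1-positive cells, and isotype asGM1-positive replicate 3 was the highest of all 12 libraries for 33 members. Both anti-PD-1 libraries numbered 2 were apart in a heat shock gene, Hspa1a, at 151 and 146 CPM against 22.5 to 32.6 in the other 4 anti-PD-1 libraries; counts without either pair are given below. CD8 T cell markers (Cd8a, Cd8b1 and 3 others) summed to 6120 to 9116 CPM over the 12 libraries. In asGM1-positive cells the sums did not overlap between treatments, at 7765 to 9116 CPM under isotype and 6120 to 7103 CPM under anti-PD-1. Cd8a (log2 -0.48 ± 0.09, adjusted p = 0.00838) and Cd3g (log2 -0.57 ± 0.14, adjusted p = 0.0269) were lower there after treatment.

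**Figure D1:**
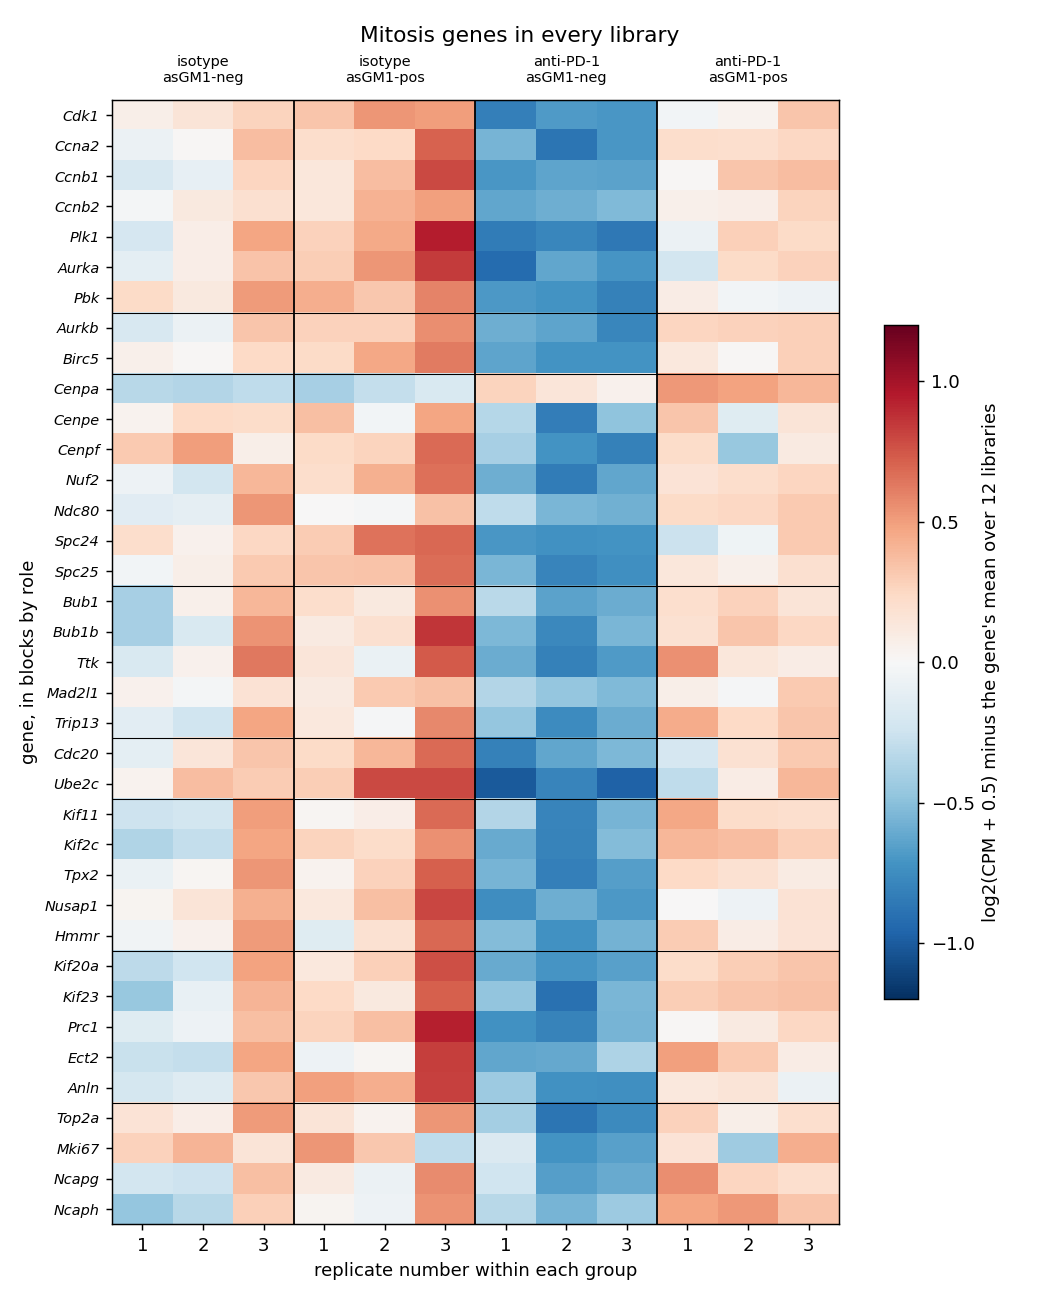
Level of the 37 mitosis genes (rows, in blocks by role) in 12 libraries (columns, replicates 1 to 3 of each group), as log2(CPM + 0.5) minus the gene's mean over the 12 libraries; red is above and blue below that mean. The 3 anti-PD-1 asGM1-negative columns are blue for nearly every gene, the row of Cenpa runs the other way, and isotype asGM1-positive replicate 3 is the reddest column.

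Across the 4 groups, anti-PD-1 asGM1-negative cells had the lowest mean for 36 of 37 members, the exception being Cenpa. The highest mean was in isotype asGM1-positive cells for 28 members, in anti-PD-1 asGM1-positive cells for 7 and in isotype asGM1-negative cells for 2. The highest library exceeded the lowest by 1.84 to 3.5-fold, with a median of 2.78-fold. Replicates spread more under isotype, where the median coefficient of variation was 19.7% in asGM1-negative and 18.6% in asGM1-positive cells, than under anti-PD-1, where it was 9.17% and 8.14%.

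Between the populations of anti-PD-1-treated tumours, 24 of the 37 members were higher in asGM1-positive cells and none was lower (edgeR quasi-likelihood test, Benjamini-Hochberg adjusted p under 0.05 over all 18657 genes, the threshold used throughout; 0.927% of all genes were higher and 0.654% lower). The members' median log2 difference was 0.85, with a range of 0.31 to 1.01, while that of all genes tested was -0.01. The groups of 3 did not overlap for 35 members, all but Cenpf and Mki67, against 10.2% of genes that were higher without overlap. In each of the 3 replicate pairs all 37 members were higher in the asGM1-positive library, by a median log2 of 0.75, 0.90 and 0.86. For the 35 without overlap any pairing of these libraries would give that direction. With the pair as a block, 35 members passed and 2 did not, Cenpf and Mki67, against 2.75% of all genes higher in that fit. The count changed with single libraries. It fell to 8, 3 or 4 without asGM1-negative replicate 1, 2 or 3 of the anti-PD-1 arm, to 15, 8 or 6 without asGM1-positive replicate 1, 2 or 3, and to 0 without both libraries numbered 2, where the members' median was still 0.79 and 4 of all genes were higher. Of all genes, 0.578%, 0.25% or 0.388% were called without asGM1-negative replicate 1, 2 or 3 of that arm. Without asGM1-positive replicate 1, 2 or 3 the share was 0.869%, 0.633% or 0.418%. The members' count was 33 without both isotype libraries numbered 3 (2.47% of all genes called). Cdk1, Birc5 and Aurkb passed in each of the 12 fits that left out 1 library.

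In asGM1-negative cells, anti-PD-1 treatment went with lower levels of 24 members and a higher level of 1, Cenpa (4.45% of all genes were lower and 4.11% higher). The median was -0.75 on the log2 scale over the members, with a range from -1.17 to 0.49, and -0.01 over all genes. The groups did not overlap for 33 members that were lower and for 1 that was higher, against 15.8% and 14.5% of genes. This comparison and the preceding one share the anti-PD-1 asGM1-negative libraries, so their values are not independent of each other. Leaving out 1 library gave 16 to 29 calls, the lowest without anti-PD-1 asGM1-negative replicate 3, and 13 members passed in all 12 such fits: Aurkb, Birc5, Ccna2, Ccnb2, Cdk1, Cenpa, Nusap1, Pbk, Plk1, Spc24, Spc25, Top2a and Ube2c. Without both anti-PD-1 libraries numbered 2 the calls were 14 lower and 1 higher (4.05% of all genes called). Without both isotype libraries numbered 3 they were 24 and 1 (8.57% of all genes called).

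In asGM1-positive cells the same treatment comparison called 3 members: Pbk and Spc24 fell and Cenpa rose (3.01% of all genes were lower and 3.72% higher). The other 34 did not pass. Unadjusted p under 0.05 was reached by 11 members that were lower and 1 that was higher, against 10.3% and 10.7% of genes. The groups did not overlap for 7 members that were lower and 1 that was higher, against 12.2% and 11.8% of genes. The members' median log2 difference was -0.17, but it was -0.0079 without isotype asGM1-positive replicate 3, -0.0081 without both isotype libraries numbered 3 and -0.27 without isotype asGM1-positive replicate 1. Pbk and Spc24 were each lost in 10 of the 12 fits that left out 1 library, also where that library belonged to neither group compared (all libraries share 1 estimate of the spread), while Cenpa passed in all 12. Without both anti-PD-1 libraries numbered 2, Cenpa alone passed, and without both isotype libraries numbered 3, Cenpa and Ncaph did, both higher.

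Between the populations of isotype-treated tumours no member passed (0.364% of all genes were higher). Unadjusted p under 0.05 was reached by 13 members, all higher in asGM1-positive cells, against 5.86% of genes, DESeq2 called 1, Anln (4.37% of all genes in its fit), and limma voom called 0. The groups did not overlap for 4 members, Cdk1, Spc24, Spc25 and Anln, all higher, against 7.94% of genes. The median log2 difference was 0.29 against -0.00 for all genes. It was 0.15 without isotype asGM1-positive replicate 3 and 0.43 without isotype asGM1-negative replicate 3. With the pair as a block, 10 members were higher in asGM1-positive cells (1.83% of all genes): Ccnb1, Plk1, Aurka, Aurkb, Spc25, Bub1b, Cdc20, Kif20a, Prc1 and Anln. The asGM1-positive library of a pair was higher for 33, 32 and 35 of 37 members in pairs 1, 2 and 3, by a median log2 of 0.28, 0.27 and 0.26.

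The population difference was numerically larger under anti-PD-1 than under isotype for all 37 members, with a median gain of 0.55 on the log2 scale against 0.01 for all genes. This median was 0.35 without isotype asGM1-negative replicate 3 and 0.69 without isotype asGM1-positive replicate 3. As a test of that gain itself, the interaction term passed for no member (0% of all genes passed). Unadjusted p was under 0.05 for 19 members against 3.85% of genes, DESeq2 called 2, Cdk1 and Top2a (0.731% of all genes in its fit), and voom called 0. The smallest p-values among the members belonged to Top2a (log2 0.86 ± 0.23, adjusted p = 0.442) and Cdk1 (log2 0.57 ± 0.15, adjusted p = 0.442). With the pair as a block the edgeR interaction term also passed for no member (0.0268% of all genes passed). Adjusted p in that fit ran from 0.0527 for Top2a (log2 0.88 ± 0.10), close to the threshold, to 0.834 for Anln. A larger population difference under anti-PD-1 is thus not shown at this adjusted threshold.

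**Figure D2:**
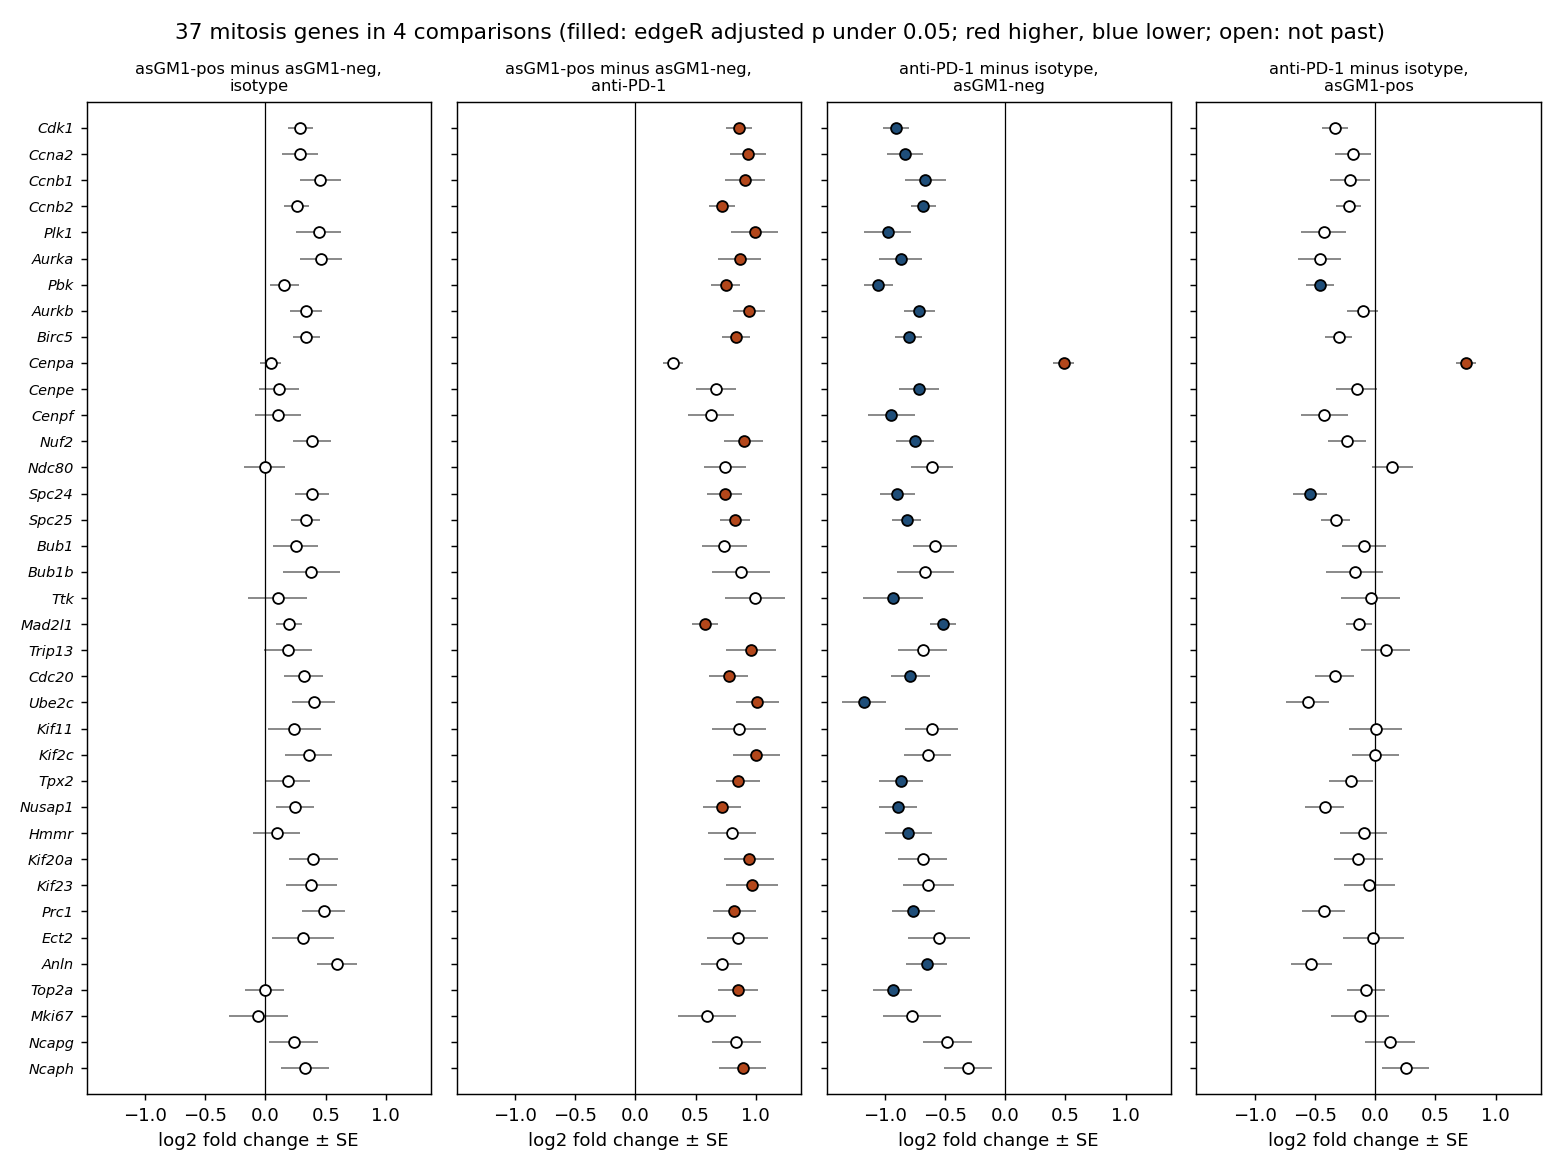
Log2 fold change with its standard error (horizontal axis) of each mitosis gene (rows) in 4 comparisons (panels); filled points passed the edgeR test at an adjusted p under 0.05, red for higher and blue for lower, and open points did not. Under anti-PD-1 all 37 points lie right of 0 and 24 are filled, in asGM1-negative cells 24 are filled on the left and Cenpa on the right, and under isotype none is filled.

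All 7 genes of the entry group, CDK1 with its cyclins and entry kinases, were higher in asGM1-positive cells under anti-PD-1 and lower in anti-PD-1 than isotype asGM1-negative cells. The kinase gene Cdk1, whose product triggers mitotic entry, was at 109, 115 and 125 CPM in the isotype asGM1-negative and 131, 149.7 and 146 CPM in the isotype asGM1-positive libraries. With anti-PD-1 the levels were 58.2, 64.3 and 63.5 CPM (asGM1-negative) and 101, 107 and 130.3 CPM (asGM1-positive). The 3 anti-PD-1 asGM1-negative libraries lay below the other 9. The population difference under anti-PD-1 was 1.82-fold (log2 0.86 ± 0.11, adjusted p = 0.00507) and the treatment difference in asGM1-negative cells was log2 -0.91 ± 0.11, adjusted p = 0.000766. The A-type cyclin gene Ccna2, whose protein acts in S phase and early mitosis, was at 169, 179 and 228 CPM in the isotype asGM1-negative and 205, 208 and 289 CPM in the isotype asGM1-positive libraries. The anti-PD-1 arm gave 119.7, 95.9 and 109 CPM for asGM1-negative cells against 205, 204 and 210.3 CPM for asGM1-positive cells. Its asGM1-positive libraries under anti-PD-1 lay within the isotype asGM1-negative range and above the anti-PD-1 asGM1-negative one (log2 0.93 ± 0.15, adjusted p = 0.0127), and it was lower after anti-PD-1 in asGM1-negative cells (log2 -0.83 ± 0.15, adjusted p = 0.00645). Ccnb1, the main B-type mitotic cyclin, was at 116, 123 and 158 CPM in the isotype asGM1-negative and 145, 170.3 and 229 CPM in the isotype asGM1-positive libraries. In the anti-PD-1 groups it was at 81.2, 84.7 and 84.0 CPM (asGM1-negative) and 133, 167 and 170.1 CPM (asGM1-positive). The 3 anti-PD-1 asGM1-negative libraries were close to each other and below the rest (log2 0.91 ± 0.17, adjusted p = 0.0263 between populations; log2 -0.66 ± 0.17, adjusted p = 0.0316 against isotype). The second B-type cyclin, Ccnb2, was at 148, 164 and 172 CPM in the isotype asGM1-negative and 165, 202 and 213 CPM in the isotype asGM1-positive libraries. Anti-PD-1 libraries of asGM1-negative cells held 98.0, 100.4 and 104 CPM, those of asGM1-positive cells 157, 159 and 182 CPM. It differed by log2 0.72 ± 0.11, adjusted p = 0.01 between populations and by log2 -0.68 ± 0.11, adjusted p = 0.00306 between treatments in asGM1-negative cells.

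Among the entry kinases, Aurka, which matures centrosomes, was at 50.6, 58.1 and 69.9 CPM in the isotype asGM1-negative and 67.4, 79.3 and 98.9 CPM in the isotype asGM1-positive libraries. Under anti-PD-1 the negative sort gave 28.8, 35.5 and 33.5 CPM and the positive sort 47.1, 64.6 and 66.6 CPM. It had the largest p of the group between populations under anti-PD-1 (log2 0.87 ± 0.18, adjusted p = 0.0352), and was lower after treatment in asGM1-negative cells (log2 -0.87 ± 0.18, adjusted p = 0.0115). Pbk, a mitotic kinase also called TOPK, was at 41.0, 37.9 and 49.8 CPM in the isotype asGM1-negative and 47.2, 43.6 and 52.7 CPM in the isotype asGM1-positive libraries. With anti-PD-1 the levels were 21.4, 21.0 and 19.6 CPM (asGM1-negative) and 37.1, 33.9 and 33.3 CPM (asGM1-positive). It had the smallest p of all members for treatment in asGM1-negative cells (log2 -1.05 ± 0.12, adjusted p = 0.000595), a ratio of 0.48, and it was 1 of the 2 that fell in asGM1-positive cells (log2 -0.46 ± 0.12, adjusted p = 0.0401). Plk1, the polo kinase, ranged from 46.9 to 49.4 CPM in anti-PD-1 asGM1-negative libraries and from 74.0 to 164 in the other 9 (log2 0.99 ± 0.19, adjusted p = 0.0289 between populations).

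Both genes of the chromosomal passenger complex, which corrects faulty kinetochore attachments and acts in cytokinesis, passed both comparisons. Birc5 encodes survivin, the subunit that brings the complex to centromeres, and was at 128, 124 and 145 CPM in the isotype asGM1-negative and 144, 169.6 and 189 CPM in the isotype asGM1-positive libraries. The anti-PD-1 arm gave 79.3, 74.6 and 74.6 CPM for asGM1-negative cells against 134, 124 and 149.9 CPM for asGM1-positive cells. It was 1.79-fold higher in asGM1-positive cells under anti-PD-1 (log2 0.84 ± 0.11, adjusted p = 0.00627) and lower after treatment in asGM1-negative cells (log2 -0.80 ± 0.11, adjusted p = 0.00176). Under isotype it had the second-smallest p of the members and did not pass (log2 0.34 ± 0.11, adjusted p = 0.217). Aurkb, the complex's kinase, was at 109, 119 and 157 CPM in the isotype asGM1-negative and 151, 150.5 and 184 CPM in the isotype asGM1-positive libraries. In the anti-PD-1 groups it was at 82.6, 79.9 and 72.3 CPM (asGM1-negative) and 149, 151 and 152 CPM (asGM1-positive). The anti-PD-1 asGM1-positive libraries lay within the isotype range and those of asGM1-negative cells below it (log2 0.94 ± 0.13, adjusted p = 0.00833 between populations; log2 -0.71 ± 0.13, adjusted p = 0.00723 for treatment).

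**Figure D3:**
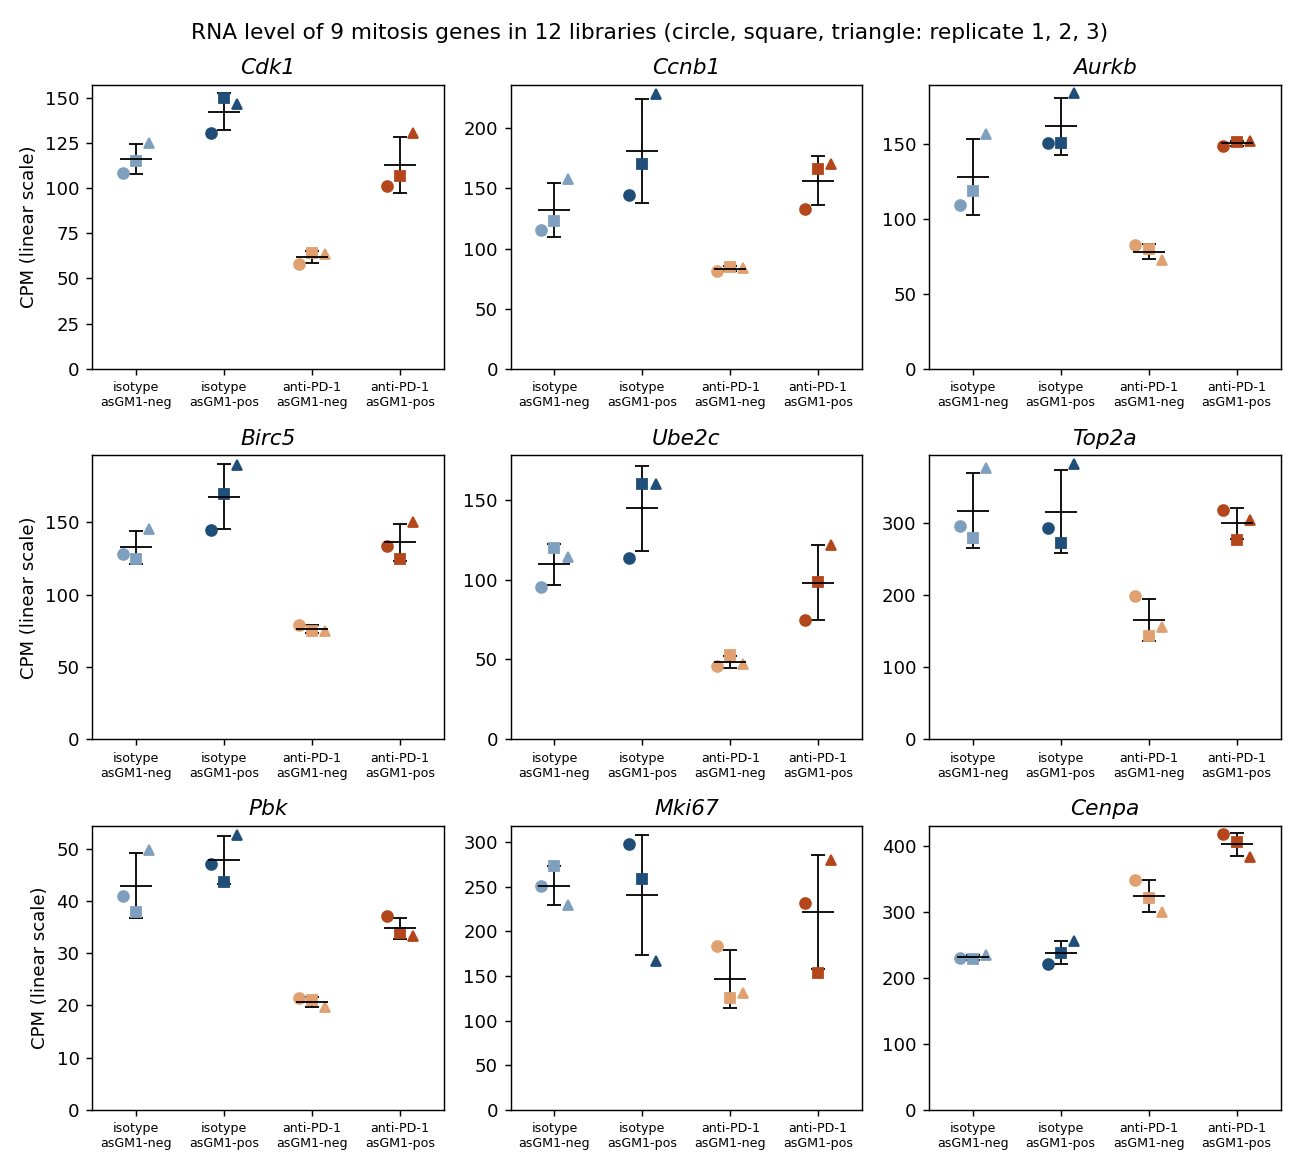
CPM on a linear scale from 0 (vertical axis) of 9 mitosis genes in the 4 groups (horizontal axis); circles, squares and triangles are replicates 1, 2 and 3, and bars are the mean ± SD (n = 3). Cdk1, Ccnb1, Aurkb, Birc5, Ube2c, Top2a and Pbk are lowest in anti-PD-1 asGM1-negative cells without overlap, Mki67 overlaps between the anti-PD-1 populations, and Cenpa is higher in both anti-PD-1 groups than in both isotype groups.

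The centromere and kinetochore genes were mixed: 3 of 7 were higher in asGM1-positive cells under anti-PD-1 (Nuf2, Spc24 and Spc25, all subunits of the NDC80 complex that grips microtubules), 5 were lower after anti-PD-1 in asGM1-negative cells, and Cenpa was higher there. Spc25 was at 69.2, 74.5 and 88.3 CPM in the isotype asGM1-negative and 89.5, 89.9 and 113 CPM in the isotype asGM1-positive libraries. Anti-PD-1 libraries of asGM1-negative cells held 48.4, 40.7 and 42.3 CPM, those of asGM1-positive cells 77.9, 74.0 and 81.1 CPM. It was the member of the group with the smallest p between populations under anti-PD-1 (log2 0.83 ± 0.12, adjusted p = 0.01; log2 -0.82 ± 0.12, adjusted p = 0.00247 for treatment in asGM1-negative cells). Spc24, its partner subunit, was at 86.3, 77.4 and 88.6 CPM in the isotype asGM1-negative and 92.2, 117 and 121 CPM in the isotype asGM1-positive libraries. Under anti-PD-1 the negative sort gave 45.7, 44.8 and 45.2 CPM and the positive sort 62.2, 71.8 and 92.8 CPM. The anti-PD-1 asGM1-negative libraries were the lowest, and in asGM1-positive cells it also fell after treatment (log2 -0.54 ± 0.14, adjusted p = 0.0441), although replicate 3 (92.8 CPM) exceeded the lowest isotype library (92.2 CPM). Ndc80, the subunit that names the complex, did not pass between populations (log2 0.74 ± 0.17, adjusted p = 0.0593) or for treatment in asGM1-negative cells (log2 -0.61 ± 0.17, adjusted p = 0.0508). With the pair as a block it passed between populations (adjusted p = 0.00549). Cenpf, a large kinetochore protein, was at 66.3, 75.4 and 56.1 CPM in the isotype asGM1-negative and 62.7, 64.1 and 85.7 CPM in the isotype asGM1-positive libraries. With anti-PD-1 the levels were 40.2, 32.2 and 30.1 CPM (asGM1-negative) and 62.2, 38.7 and 57.5 CPM (asGM1-positive). Its anti-PD-1 groups overlapped through asGM1-positive replicate 2 (log2 0.63 ± 0.19, adjusted p = 0.172), and it was lower after treatment in asGM1-negative cells (log2 -0.95 ± 0.20, adjusted p = 0.0121), as was the kinetochore motor gene Cenpe (log2 -0.72 ± 0.17, adjusted p = 0.0229). Between populations under anti-PD-1 Cenpe passed with the block (adjusted p = 0.0159) and not without it (adjusted p = 0.0806).

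Cenpa encodes the histone H3 variant that marks the centromere, and it was the 1 member higher after anti-PD-1 in both populations. It was at 231, 228 and 236 CPM in the isotype asGM1-negative and 221, 238 and 257 CPM in the isotype asGM1-positive libraries. The anti-PD-1 arm gave 349.5, 322 and 301 CPM for asGM1-negative cells against 419, 407 and 384 CPM for asGM1-positive cells. Every anti-PD-1 library exceeded every isotype library of the same population. It rose 1.69-fold in asGM1-positive cells (log2 0.76 ± 0.09, adjusted p = 0.000361) and 1.40-fold in asGM1-negative cells (log2 0.49 ± 0.08, adjusted p = 0.0054). The asGM1-positive libraries were the higher ones under anti-PD-1 without overlap, but this did not pass without the block (log2 0.31 ± 0.08, adjusted p = 0.106) and did with it (adjusted p = 0.0253). Under isotype the populations overlapped (log2 0.04 ± 0.08, adjusted p = 0.907).

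Of 5 spindle assembly checkpoint genes, Mad2l1 and Trip13 passed between populations under anti-PD-1, and Mad2l1 and Ttk were lower after treatment in asGM1-negative cells. Mad2l1, whose protein MAD2 restrains CDC20, was at 120.1, 114 and 131 CPM in the isotype asGM1-negative and 125, 145 and 148 CPM in the isotype asGM1-positive libraries. In the anti-PD-1 groups it was at 91.2, 84.0 and 80.5 CPM (asGM1-negative) and 122, 115 and 145 CPM (asGM1-positive). Its difference between populations was the smallest of those that passed (log2 0.58 ± 0.11, adjusted p = 0.0263; log2 -0.52 ± 0.11, adjusted p = 0.0129 for treatment). Trip13, the ATPase that recycles MAD2, was higher in asGM1-positive cells under anti-PD-1 (log2 0.96 ± 0.20, adjusted p = 0.0415), and Ttk, the kinase that starts the signal, was lower after treatment (log2 -0.93 ± 0.25, adjusted p = 0.04). Bub1b, which encodes the checkpoint protein BUBR1, was at 77.3, 89.7 and 149 CPM in the isotype asGM1-negative and 109.9, 117 and 185 CPM in the isotype asGM1-positive libraries. Anti-PD-1 libraries of asGM1-negative cells held 69.97, 59.5 and 69.8 CPM, those of asGM1-positive cells 116, 129 and 121 CPM. The anti-PD-1 populations did not overlap, yet isotype replicate 3 was high in both populations, and the gene passed under anti-PD-1 with the pair as a block (adjusted p = 0.00191) and not without it (log2 0.88 ± 0.24, adjusted p = 0.109). Bub1, a kinetochore kinase, did not pass without the block (log2 0.74 ± 0.18, adjusted p = 0.0806) and did with it (adjusted p = 0.0154). The same held for Ttk (adjusted p = 0.0808 without and 0.00486 with the block).

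Both partners of the anaphase-promoting complex passed both comparisons. Ube2c, the ubiquitin-conjugating enzyme that serves it, was at 95.3, 119.6 and 114 CPM in the isotype asGM1-negative and 114, 160.0 and 160.2 CPM in the isotype asGM1-positive libraries. Under anti-PD-1 the negative sort gave 45.8, 53.0 and 47.0 CPM and the positive sort 74.5, 98.4 and 122 CPM. It had the largest fold of any member in both: 2.02-fold higher in asGM1-positive cells under anti-PD-1 (log2 1.01 ± 0.18, adjusted p = 0.0217) and log2 -1.17 ± 0.18, adjusted p = 0.00281 for treatment in asGM1-negative cells. Cdc20, the activator that the checkpoint holds back, was at 111, 133 and 151 CPM in the isotype asGM1-negative and 140.5, 159 and 193 CPM in the isotype asGM1-positive libraries. With anti-PD-1 the levels were 68.1, 78.0 and 82.3 CPM (asGM1-negative) and 104, 137 and 149.8 CPM (asGM1-positive). Every anti-PD-1 asGM1-negative library was below all the others (log2 0.77 ± 0.16, adjusted p = 0.0403 between populations; log2 -0.79 ± 0.16, adjusted p = 0.0122 for treatment).

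Among 5 spindle motors and assembly factors, Kif2c, Tpx2 and Nusap1 were higher in asGM1-positive cells under anti-PD-1, and Tpx2, Nusap1 and Hmmr were lower after treatment in asGM1-negative cells. Kif2c, a kinesin that takes microtubules apart at centromeres, was at 33.7, 35.7 and 60.6 CPM in the isotype asGM1-negative and 52.3, 50.9 and 63.6 CPM in the isotype asGM1-positive libraries. The anti-PD-1 arm gave 28.5, 24.7 and 30.2 CPM for asGM1-negative cells against 57.5, 56.5 and 53.1 CPM for asGM1-positive cells. It differed between populations under anti-PD-1 (log2 1.0 ± 0.20, adjusted p = 0.0292) but did not pass for treatment in asGM1-negative cells (log2 -0.64 ± 0.20, adjusted p = 0.0652). Tpx2, the Aurora A activator (log2 0.85 ± 0.18, adjusted p = 0.0437), and Nusap1, a microtubule bundler (log2 0.72 ± 0.16, adjusted p = 0.049), passed closer to the threshold. Hmmr, a spindle microtubule-binding protein, gave log2 0.80 ± 0.20, adjusted p = 0.0753 between populations (adjusted p = 0.00195 with the block) and log2 -0.80 ± 0.20, adjusted p = 0.0279 for treatment. Kif11, the motor that pushes spindle poles apart, was at 106, 108 and 178 CPM in the isotype asGM1-negative and 128, 133 and 202 CPM in the isotype asGM1-positive libraries. In the anti-PD-1 groups it was at 98.2, 72.6 and 85.3 CPM (asGM1-negative) and 173, 146 and 145 CPM (asGM1-positive). Isotype replicate 3 was again the highest in each population. It passed under anti-PD-1 with the pair as a block (adjusted p = 0.00137) and not without (log2 0.86 ± 0.22, adjusted p = 0.0955).

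Of 5 midzone and cytokinesis genes, Prc1, Kif20a and Kif23 passed between populations under anti-PD-1, and Prc1 and Anln were lower after treatment in asGM1-negative cells. Prc1, the bundler of midzone microtubules, was at 104, 110.3 and 148 CPM in the isotype asGM1-negative and 139, 149 and 221 CPM in the isotype asGM1-positive libraries. Anti-PD-1 libraries of asGM1-negative cells held 69.5, 66.1 and 78.3 CPM, those of asGM1-positive cells 117, 124 and 137 CPM. It was 1.77-fold higher in asGM1-positive cells (log2 0.82 ± 0.18, adjusted p = 0.0459), just inside the threshold. The midzone motor genes Kif20a (log2 0.94 ± 0.21, adjusted p = 0.0459) and Kif23 (log2 0.97 ± 0.21, adjusted p = 0.0481) were also close to it. Anln encodes anillin, a scaffold of the contractile ring, and was at 20.3, 21.1 and 29.8 CPM in the isotype asGM1-negative and 33.5, 32.1 and 42.0 CPM in the isotype asGM1-positive libraries. Under anti-PD-1 the negative sort gave 17.3, 14.1 and 14.0 CPM and the positive sort 25.8, 26.3 and 22.4 CPM. Both treatments had higher asGM1-positive values without overlap. The gene had the smallest p of the members under isotype (log2 0.59 ± 0.17, adjusted p = 0.14), where it passed with the pair as a block (adjusted p = 0.0193), as it did under anti-PD-1 (adjusted p = 0.00763 against 0.0669 without). Ect2, the exchange factor that activates RhoA at the cleavage site, was at 32.2, 31.9 and 54.2 CPM in the isotype asGM1-negative and 37.4, 39.6 and 69.8 CPM in the isotype asGM1-positive libraries. With anti-PD-1 the levels were 25.1, 25.4 and 30.1 CPM (asGM1-negative) and 54.9, 48.6 and 41.6 CPM (asGM1-positive). It passed neither comparison without the block (log2 0.85 ± 0.26, adjusted p = 0.159 between populations) and the first with it (adjusted p = 0.00867).

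Chromosome structure genes gave 2 calls of 4 between populations under anti-PD-1, Top2a and Ncaph, and 1 for treatment in asGM1-negative cells, Top2a. Top2a, the topoisomerase that untangles sister chromatids, was at 296, 279 and 376 CPM in the isotype asGM1-negative and 293, 272 and 381 CPM in the isotype asGM1-positive libraries. The anti-PD-1 arm gave 199, 143 and 155 CPM for asGM1-negative cells against 318, 276 and 303 CPM for asGM1-positive cells. It was 1.81-fold higher in asGM1-positive cells under anti-PD-1 (log2 0.85 ± 0.16, adjusted p = 0.0272) and lower after treatment in asGM1-negative cells (log2 -0.94 ± 0.16, adjusted p = 0.00526), while its isotype populations overlapped (log2 -0.01 ± 0.16, adjusted p = 0.995). Mki67 encodes Ki-67, a chromosome surface protein used as a marker of cycling cells, and was at 250.2, 273 and 229 CPM in the isotype asGM1-negative and 298, 259 and 167 CPM in the isotype asGM1-positive libraries. In the anti-PD-1 groups it was at 184, 125 and 131 CPM (asGM1-negative) and 231, 153 and 279 CPM (asGM1-positive). Isotype asGM1-positive replicate 3 had the lowest value of the isotype arm here, although that library was the highest of all for 33 other members. Mki67 passed in neither comparison (log2 0.59 ± 0.24, adjusted p = 0.358 between populations; log2 -0.77 ± 0.24, adjusted p = 0.0734 for treatment) and not with the block under anti-PD-1 (adjusted p = 0.125). Ncaph and Ncapg, subunits of condensin I, which compacts chromosomes, gave log2 0.89 ± 0.20, adjusted p = 0.0481 and log2 0.84 ± 0.21, adjusted p = 0.0734 between populations under anti-PD-1, and -0.31 and -0.48 on the log2 scale for treatment in asGM1-negative cells, where neither passed. With the pair as a block Ncapg passed under anti-PD-1 (adjusted p = 0.00137).

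The wider mitotic programme, 122 other mitosis genes that were all tested, gave calls mostly in the same directions. In it 31 genes were higher in asGM1-positive cells under anti-PD-1 and 0 lower, with a median log2 of 0.63; 39 were lower and 1 higher after treatment in asGM1-negative cells, with a median of -0.45; 1 was lower and 1 higher in asGM1-positive cells; and 0 passed under isotype (23 at unadjusted p under 0.05) or for the interaction. The difference between this list and the members was not tested. The smallest p between populations under anti-PD-1 was that of Fbxo5, the inhibitor EMI1 of the anaphase-promoting complex (log2 0.88 ± 0.10, adjusted p = 0.00321), followed by Cdca5, which encodes the cohesin protector sororin (log2 0.94 ± 0.12, adjusted p = 0.00592), Cdc25c, the phosphatase that activates CDK1 (log2 1.07 ± 0.16, adjusted p = 0.01), and Cep55, an abscission scaffold (log2 0.93 ± 0.14, adjusted p = 0.0101). Of 17 transcription factor genes of this programme, 2 were higher in asGM1-positive cells under anti-PD-1 and 15 did not pass, with a median log2 of 0.30. The 2 were Foxm1 (log2 0.81 ± 0.17, adjusted p = 0.0435) and Mybl2, which encodes B-MYB (log2 0.98 ± 0.21, adjusted p = 0.0466). They were at 29.1, 26.7 and 37.02 CPM for Foxm1 in anti-PD-1 asGM1-negative libraries and 55.0, 51.8 and 56.2 in asGM1-positive ones, and at 40.9, 34.7 and 43.9 and 75.8, 84.6 and 75.2 CPM for Mybl2. After treatment in asGM1-negative cells Fbxo5 (log2 -0.89 ± 0.10, adjusted p = 0.000602) and the passenger subunit gene Cdca8 (log2 -0.92 ± 0.13, adjusted p = 0.00165) fell. So did the centromere gene Cenpm (log2 -1.01 ± 0.14, adjusted p = 0.00165) and the CDK subunit gene Cks1b (log2 -0.80 ± 0.11, adjusted p = 0.00192). Rbl2, which encodes p130, rose there (log2 0.81 ± 0.17, adjusted p = 0.0136). In asGM1-positive cells Haspin, the kinase that recruits the passenger complex, fell (log2 -0.73 ± 0.12, adjusted p = 0.00358) and Rbl2 rose (log2 0.79 ± 0.17, adjusted p = 0.0172). Without both anti-PD-1 libraries numbered 2, the counts were 0 between populations under anti-PD-1 and 17 lower for treatment in asGM1-negative cells. In these fits 0.0819% and 4.05% of all genes were called in either direction. With the pair as a block, 75 were higher under anti-PD-1 and 9 under isotype, against 2.75% and 1.83% of all genes. In the main fit 0.927% of all genes were higher between populations under anti-PD-1 and 4.45% lower after treatment in asGM1-negative cells. At unadjusted p under 0.05, 5.86% were higher under isotype. Under isotype the smallest p-values were those of Fzr1 (log2 0.44 ± 0.12, adjusted p = 0.131), Haspin (log2 0.39 ± 0.12, adjusted p = 0.161), E2f4 (log2 0.35 ± 0.11, adjusted p = 0.17) and Fam83d (log2 0.70 ± 0.22, adjusted p = 0.202), none past the threshold.

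DNA replication genes, which act in S phase before mitosis, gave calls in the same directions. Of 37 tested, 18 were higher in asGM1-positive cells under anti-PD-1, 20 were lower after treatment in asGM1-negative cells, 1 was lower in asGM1-positive cells (Tk1, log2 -0.47 ± 0.10, adjusted p = 0.021), and 0 passed under isotype (3 at unadjusted p under 0.05) or for the interaction. The medians were 0.70 between populations under anti-PD-1 and -0.63 for treatment in asGM1-negative cells on the log2 scale, against 0.85 and -0.75 for the mitosis genes; the difference between the lists was not tested. Without both anti-PD-1 libraries numbered 2 these counts were 0 and 11, and with the pair as a block 36 were higher under anti-PD-1 and 1 under isotype. Of all genes, 0.927% were higher between populations under anti-PD-1. The share lower after treatment was 4.45% in asGM1-negative and 3.01% in asGM1-positive cells. Under isotype 5.86% were higher at unadjusted p under 0.05. With the block 2.75% were higher under anti-PD-1 and 1.83% under isotype. Without both libraries numbered 2, 0.0819% and 4.05% were called in either direction. Cdc45, part of the replicative helicase (log2 0.79 ± 0.12, adjusted p = 0.01), and Pole2, a polymerase epsilon subunit (log2 0.78 ± 0.12, adjusted p = 0.0101), had the smallest p between populations; Mcm2, another helicase subunit, gave log2 0.79 ± 0.24, adjusted p = 0.151 and Pcna, the sliding clamp, log2 0.47 ± 0.10, adjusted p = 0.0398.

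Markers of other cell types differed between the populations and between the treatments beside these values. Macrophage and monocyte genes (12 tested) were higher in asGM1-positive cells for 8 genes under isotype and 6 under anti-PD-1; their sum was 76.2 to 87.1 CPM in isotype asGM1-negative, 216 to 309.8 in isotype asGM1-positive, 85.8 to 129.8 in anti-PD-1 asGM1-negative and 191 to 333 in anti-PD-1 asGM1-positive libraries. Plasmacytoid dendritic cell genes (9 tested) were lower in asGM1-positive cells for 8 and 6 genes, with sums of 323 to 493, 147 to 226, 288 to 343 and 198 to 228 CPM in the same order. Markers of CD4 and regulatory T cells summed to 759 to 1029, 545 to 822, 1559 to 1610 and 1245 to 1435 CPM, highest in the anti-PD-1 groups. The sums did not reflect every gene of this list. In asGM1-negative cells 3 of the 6 markers rose and 3 fell after treatment (median log2 -0.02), with 1 called higher. In asGM1-positive cells all 6 rose (median log2 0.64), with 1 called higher. Of single markers in these lists, Mrc1 of macrophages reached at most 0.391 CPM, Ncr1 of NK cells 1.85 CPM and Krt8 of epithelial cells 2.53 CPM in any library. Other genes of the same lists were higher, as the list sums show. The NK marker list as a whole summed to 1015 to 1504 CPM, of which Klrk1, a gene that CD8 T cells also express, made 1004 to 1482 CPM; its Klrb1c was lower after treatment in asGM1-positive cells (log2 -2.62 ± 0.57, adjusted p = 0.0183). Epithelial and tumour cell markers summed to 60.1 to 107 CPM in isotype and 15.6 to 31.1 CPM in anti-PD-1 libraries. Most of that was Cdh1, which was lower after treatment in asGM1-negative (log2 -1.54 ± 0.20, adjusted p = 0.0012) and asGM1-positive cells (log2 -2.48 ± 0.21, adjusted p = 5.33e-05). Heat shock genes (6 tested) summed to 2954 to 3849 CPM in isotype and 2039 to 2597 CPM in anti-PD-1 libraries. After treatment 1 of them was lower in asGM1-negative cells (Hsp90aa1, log2 -0.79 ± 0.10, adjusted p = 0.000983) and 3 were lower in asGM1-positive cells (Hsp90aa1, Hspa1b and Dnajb1). Spib of plasmacytoid dendritic cells was at 0 in all 6 asGM1-positive libraries, and the B cell marker Ms4a1 and the epithelial marker Krt19 were at 0 in all 12. A count of 0 allows up to 0.0516 CPM in the shallowest library, before the TMM factors. The part of these cells and genes in the mitosis gene differences was not tested. For scale, the summed level of the 37 mitosis genes was 2318 to 5319 CPM over the 12 libraries.

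**Figure D4:**
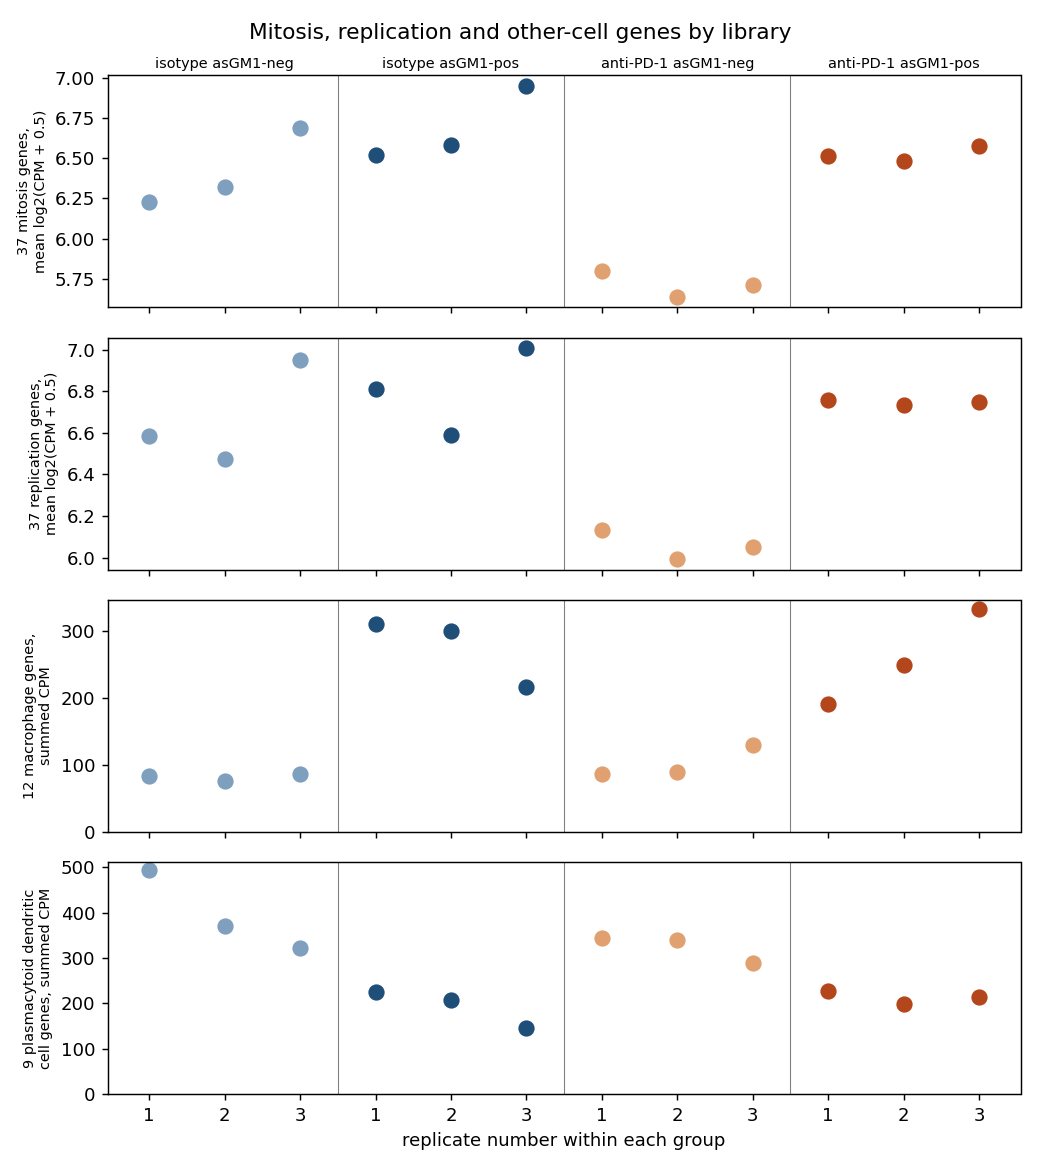
Each point is 1 of the 12 libraries (horizontal axis, replicates 1 to 3 of each group): mean log2(CPM + 0.5) of the 37 mitosis genes and of 37 DNA replication genes (upper panels), and summed CPM of 12 macrophage and 9 plasmacytoid dendritic cell genes (lower panels). The mitosis mean is 5.64 to 5.80 in anti-PD-1 asGM1-negative libraries and 6.23 to 6.95 in the other 9, and the replication mean has the same lowest group; the macrophage sums split by population.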

How the data were processed

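Bulk RNA-seq counts per gene were taken as the authors deposited them, 1 table of whole-number counts for 56941 genes and 12 libraries. Per the labels' protocols RNA was prepared with TRIzol and a TruSeq mRNA kit and libraries with a SMARTer ultra-low-input kit; per the submitters' processing notes HISAT2, StringTie and mm39 were used, without versions. The counting step, its use of strand and its treatment of reads shared with pseudogenes or overlapping genes are not given in the sources used here.

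Genes were filtered by filterByExpr (18657 kept), scaled by TMM and tested with edgeR 4.0.16 quasi-likelihood fits in R 4.3.3 over all 12 libraries (8 residual degrees of freedom), with Benjamini-Hochberg adjustment over all genes tested. Log2 fold changes are given ± their standard error. A total of 310 genes without a symbol stayed in the tests. Same-numbered libraries deviated together within each treatment (correlations over 9255 genes of 0.41, 0.49 and 0.68 for isotype and 0.70, 0.23 and 0.21 for anti-PD-1). Differently numbered libraries reached 0.20 under isotype (asGM1-negative 1 with asGM1-positive 2) and 0.26 under anti-PD-1 (asGM1-negative 2 with asGM1-positive 3), so not every anti-PD-1 library matched best with its own number. The pairs were accepted because every same-number correlation was above 0.1. The 0.20 and 0.26 of differently numbered libraries also cleared that cut, so it does not settle the pairing. A fit with the pair as a block (4 residual degrees of freedom) is given mainly where it changes a call. Alternatives used other scalings and filters, DESeq2 1.42.0, limma voom 3.58.1 and omitted libraries; the robust fit and the omission of both isotype libraries numbered 3 were added after seeing the data. The script was tested on simulated counts.

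The members and lists were chosen with earlier results of these data known. All 37 members are named; values in every library are given for 8 core genes, for the smallest and largest p of each role between populations under anti-PD-1 and for the 2 smallest p of each other comparison, and Spc24 was added after its values were seen. Other mitosis genes are named by the 4 smallest p, with Foxm1 and Mybl2, and replication genes by the 2 smallest p, with Mcm2 and Pcna.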

Additional observations from a re-analysis of the deposited data

How the results depend on the processing

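Leaving out 1 library gave 3 to 31 members past the threshold between populations under anti-PD-1, 16 to 29 for treatment in asGM1-negative cells, 1 to 4 for treatment in asGM1-positive cells, and 0 to 0 calls both under isotype and for the interaction; the value of 1 arose without isotype asGM1-negative replicate 1, isotype asGM1-positive replicate 2 or 3, any anti-PD-1 asGM1-negative replicate, or anti-PD-1 asGM1-positive replicate 1 or 2. Without both anti-PD-1 libraries numbered 2 the counts were 0, 15 and 1 for the first 3 of these, with fewer samples in the fit and 0.0819%, 4.05% and 3.09% of all genes called. For single omissions between populations under anti-PD-1, 0.25% of all genes were called with 3 members and 1.66% with 31. For treatment in asGM1-negative cells the share was 3.78% with 16 members and 4.23% or 8.98% with 29. In asGM1-positive cells it was 3.47% to 5.73% with 1 member and 5.91% with 4. DESeq2 called 1 under isotype, 6 for treatment in asGM1-positive cells, and 2 for the interaction, against 4.37%, 12.2% and 0.731% of all genes in the same fit. The replicate block by pair gave 10 under isotype in place of 0 (3.94% of all genes called) and 35 under anti-PD-1 in place of 24 (4.78%). It left the interaction at 0. A block by the number shared across all groups gave 8 for treatment in asGM1-positive cells (7.27% of all genes called). Without a filter, and with only the 6 libraries compared, that last count was 1 (3.32% and 3.92% of all genes called). Between populations under anti-PD-1 it was 16 without a filter (more genes tested), 30 with at least 1 CPM in 3 libraries, 36 by DESeq2, and 33 with only 6 libraries. In the same order 0.699%, 2.91%, 4.67% and 2.3% of all genes were called in either direction, against 1.58% in the main fit. The members called between these populations were higher in asGM1-positive cells under every alternative run. All 37 members were followed between populations under anti-PD-1 and for treatment in asGM1-negative cells. In the other comparisons only the 8 core genes, the 2 members with the smallest p and any called member were followed. Of the genes so followed, 2 changed sign in a setting, Mki67 and Top2a, neither past the threshold there. Sign changes of the members not followed were not counted. Over the single omissions the log2 difference of Mki67 ran from -0.24 to 0.15 between populations under isotype (above 0 in 2) and from -0.33 to 0.085 for treatment in asGM1-positive cells (above 0 in 2); it was 0.088 without both isotype libraries numbered 3 in the first and 0.079 without both anti-PD-1 libraries numbered 2 in the second. For Top2a it ran from -0.17 to 0.13 under isotype (above 0 in 3) and from -0.16 to 0.084 for treatment in asGM1-positive cells (above 0 in 1), and was 0.084 in the latter without both isotype libraries numbered 3. The causes were not tested.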

Other observations

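Genes of 3 complexes among the other mitosis genes were chosen after their values were seen and are given with no test of the sets. Between populations under anti-PD-1 0.927% of all genes and 31 of the 122 other mitosis genes were higher, and 4.45% and 39 of 122 were lower after treatment in asGM1-negative cells. Of 10 anaphase-promoting complex subunits, 0 passed between populations under anti-PD-1 (median log2 0.14) and 1, Anapc11, was lower after treatment in asGM1-negative cells. Cohesin holds sister chromatids together. Of 9 genes for its ring and STAG subunits, its loader and its release factors, 0 passed in either comparison, with medians of 0.10 and 0.01. Of 6 condensin genes, 2 were higher in asGM1-positive cells under anti-PD-1 and 2 were lower after treatment in asGM1-negative cells, with medians of 0.68 and -0.44.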
